A study of Mus musculus with 4 samples.

Results

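The insulin and insulin-like growth factor (IGF) axis was followed through 10 genes: the insulin receptor Insr, its adaptors Irs1 and Irs2, the receptors Igf1r and Igf2r, the ligand Igf1 and the secreted binding proteins Igfbp3, Igfbp4, Igfbp5 and Igfbp7. They were taken by gene symbol, 10 of the 31253 genes in the count tables. The counts came from scecRNA-seq of RFP+ cells sorted from the left ventricle of mice, with 2 NC libraries and 2 HFpEF libraries. All mice carried the tamoxifen-inducible Cdh5-CreER, which recombines in ECs, together with R26-stop-tdTomato (the source of RFP) and 1 or 2 floxed Scarb1 (SR-B1) alleles on the C57BL/6N background, so Scarb1 was also targeted in the cells of the controls. NC mice received chow with 10% of energy from fat, and HFpEF mice received 60% of energy from fat with 0.5 mg/ml L-NAME, an inhibitor of nitric oxide synthesis, in the drinking water for 20 weeks. For this assay the paper describes mice with 1 and with 2 floxed alleles under each diet. Neither the Scarb1 genotype of a library nor the age of its mice is labelled. The 2 libraries of a diet may therefore be 1 of each genotype and not replicates of a single genotype. The spread between them would then include any difference by Scarb1 genotype. The number of mice behind a library is not given in the sources used here, and p-values therefore measure only the spread between libraries.

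Insulin and IGF-1 bind related receptor tyrosine kinases, which pass the signal through the adaptor proteins IRS1 and IRS2 to PI3K and AKT and hold FOXO transcription factors out of the nucleus. IGF-binding proteins hold IGF-1 in the extracellular space and release it near its receptor, and the mannose-6-phosphate receptor encoded by Igf2r removes IGF-2 and carries lysosomal enzymes. In the vessel wall, insulin receptors of ECs move insulin across the endothelium and raise nitric oxide, a pathway known to falter in obesity.

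Of 41843 deposited cells, 40154 had more than 200 genes and under 20% mitochondrial UMIs and were kept. They were clustered without the 10 genes and the other pathway genes, and clusters were named from marker genes as capillary ECs (26439 cells), artery ECs (4900), vein ECs (948), endocardial ECs (218), lymphatic ECs (98), mural cells (1685), fibroblasts (121) and leukocytes. A further 5150 cells stayed unnamed (546 and 259 in NC, 948 and 3397 in HFpEF). Their clusters, 6 and 8, had more erythroid or cardiomyocyte markers than EC markers among their leading genes. Cycling cells (110) and red cells (139) were set aside. The libraries of the diets stood apart in depth, with a median of 3754 and 4127 UMIs per cell in NC and 1736.5 and 1619 in HFpEF, and 320 kept cells had a barcode that also occurred in another library. Levels are in CPM, the UMIs of a gene in a class of 1 library scaled to the same total in every class and library, and are given as mean ± SD over the 4 libraries. Levels of different genes are not compared. The libraries are labelled as endothelial cells, and mural cells, fibroblasts and leukocytes were present beside ECs. Mural cells and B cells carried much endothelial RNA: the 8 endothelial markers summed to 3409 to 4046 CPM in mural cells and 3092 to 3901 CPM in B cells, against 6456 to 7330 CPM in capillary ECs and 29.4 to 622.5 CPM in fibroblasts. Since B cells are no endothelial cells, their values are given as background where they bear on a level. They pooled cluster r11 (76 cells, endothelial markers at 4639 CPM) and cluster r13 (68 cells, 587.1 CPM). This background thus mixes cells with much and with little endothelial RNA. It cannot show that a gene near it is not expressed in ECs.

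The binding protein genes differed widely between vessel types. The promoters of Igfbp3 and Igfbp4, which were highest in artery ECs among capillary, artery and vein ECs, are printed beside that of Igfbp5, which was highest in vein ECs of these classes. Each line runs 5′ to 3′ on the gene's strand, up to the first base of an exon in GENCODE M21, and capitals mark CG pairs. The sequences are those of RefSeq (GRCm38.p6), at chr11:7213924-7214173 (minus strand) for Igfbp3, chr11:99040994-99041243 (plus strand) for Igfbp4 and chr1:72874885-72875115 (minus strand) for Igfbp5.
Igfbp3: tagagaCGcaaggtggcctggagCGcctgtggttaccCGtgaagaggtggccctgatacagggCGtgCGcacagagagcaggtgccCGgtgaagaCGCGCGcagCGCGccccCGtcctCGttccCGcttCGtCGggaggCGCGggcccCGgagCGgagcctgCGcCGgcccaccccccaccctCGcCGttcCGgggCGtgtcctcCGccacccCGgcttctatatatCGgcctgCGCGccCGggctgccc
Igfbp4: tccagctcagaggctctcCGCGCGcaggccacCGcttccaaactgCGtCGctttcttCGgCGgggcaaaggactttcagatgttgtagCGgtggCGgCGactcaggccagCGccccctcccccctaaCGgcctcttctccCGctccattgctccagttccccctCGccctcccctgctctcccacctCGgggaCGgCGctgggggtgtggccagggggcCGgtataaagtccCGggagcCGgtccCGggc
Igfbp5: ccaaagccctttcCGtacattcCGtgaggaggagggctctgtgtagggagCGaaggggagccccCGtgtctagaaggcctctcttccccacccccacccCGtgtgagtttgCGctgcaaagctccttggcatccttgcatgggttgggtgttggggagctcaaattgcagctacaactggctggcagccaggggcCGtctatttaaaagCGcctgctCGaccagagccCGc
The printed stretch of Igfbp3 held 32 CG pairs in 250 bases and that of Igfbp4 held 22 in 250 bases. The stretch of Igfbp5 held 10 in 231 bases. Over windows of 300 bases around the start, GC content was 71.7% for Igfbp3, 71.3% for Igfbp4 and 56.3% for Igfbp5, beside a median of 52.7% over 32851 mouse promoters. RefSeq held a window of 300 bases for 9 of the 10 genes. For 3 of them it did not include the gene start of GENCODE M21: it lay inside the gene for Igf1 and upstream of the gene for Igf1r and Irs2. The letters AGGTCA, a core element of nuclear receptor sites, were searched on both strands and occurred in the windows of Igf1, Igf1r and Igf2r, 3 of 9, beside 16.3% of all promoters. The forkhead letters TGTTTAC were in 0 of 9 windows, beside 3.65% of all promoters. The stretches are shown as descriptions of the genes, and no binding was measured here.

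In the GENCODE M21 annotation (GRCm38/mm10) all 10 are protein-coding genes. Igf1 spans chr10:87858265-87937042, Insr chr8:3122061-3279617, Igf1r chr7:67952827-68233668 and Igf2r chr17:12682406-12769664. Irs1 spans chr1:82233101-82291416 and Irs2 chr8:10984681-11008458. Igfbp3 spans chr11:7206086-7213923, Igfbp4 chr11:99041244-99054392, Igfbp5 chr1:72857932-72874884 and Igfbp7 chr5:77349240-77408041. The assay counts the 3′ ends of transcripts over the whole gene, so these values do not separate isoforms.

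Igf1, the ligand, was a gene of fibroblasts and vein ECs. It reached 102.8, 233.9, 207.5 and 208.7 CPM in fibroblasts (NC 1, NC 2, HFpEF 1 and HFpEF 2, the order used throughout) and 77.7, 91.7, 99.8 and 152.8 CPM in vein ECs. The mean of vein ECs was 105.5 CPM ± 32.8 (SD, n = 4), which was 17.4-fold that of capillary ECs (6.06 ± 1.79), with vein above capillary in 4 of 4 libraries. Fewer UMIs in a class sum can come from fewer cells with the transcript or from less RNA per cell, which class sums cannot tell apart. Artery ECs held only 8 UMIs of Igf1 among 4900 cells, a level of 0.37 CPM ± 0.443. Lymphatic ECs (38.7 CPM ± 14.4) and endocardial ECs (15.1 ± 3.32) lay between vein and capillary ECs. The ranges of vein and lymphatic ECs did not overlap, nor did those of endocardial and capillary ECs, while capillary ECs and mural cells (5.03 ± 2.67) overlapped. Macrophages, which numbered 37 cells, had 238.0 and 227.4 CPM in the libraries with 15 and 19 of them and no UMI in those with 2 and 1. B cells had no UMI of Igf1. The other ligands were scarce: Ins1 had no UMI in any class, Ins2 had 3 UMIs in capillary ECs, and Igf2 ran from 3.61 to 9.54 CPM in artery ECs and from 9.60 to 110.6 CPM in endocardial ECs.

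Insr, the receptor of insulin, was highest in vein ECs, at 84.3, 72.0, 99.8 and 152 CPM. Artery ECs had 32.0, 35.9, 38.2 and 34.4 CPM and capillary ECs 19.2, 19.7, 23.5 and 20.4 CPM. The order vein above artery above capillary held in each of the 4 libraries and none of these ranges overlapped. The vein mean of 102 CPM ± 35.2 (SD, n = 4) was 4.93-fold the capillary mean and 2.91-fold the artery mean. Mural cells (33.3 ± 5.71), fibroblasts (37.9 ± 26.8), lymphatic ECs (34.5 ± 19.3) and endocardial ECs (29.5 ± 20.2) overlapped artery ECs, and fibroblasts overlapped vein ECs as well. B cells had 12.4 CPM ± 13.5, a range that included the capillary values.

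Igf1r, the IGF-1 receptor, was more even. It was highest in endocardial ECs (131.8 CPM ± 30.5), followed by fibroblasts (119.7 ± 88.5), mural cells (105.8 ± 14.3), artery ECs (96.1 ± 7.20) and capillary ECs (84.6 ± 6.87), each of whose ranges overlapped the next. Vein ECs were lowest of the 4 large classes, at 58.0, 67.3, 56.4 and 48.0 CPM, below the capillary value in 4 of 4 libraries and without overlap. Among capillary, artery and vein ECs, vein ECs were thus the highest class for Insr and the lowest for Igf1r, and artery ECs were above capillary ECs for both genes in 4 of 4 libraries. B cells had 46.8 CPM ± 24.8 of Igf1r, which overlapped vein ECs.

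Igf2r, the clearance receptor of IGF-2, was highest in endocardial ECs, at 436.5, 163.2, 214.3 and 308.5 CPM. Fibroblasts had 170.0 CPM ± 33.1, which overlapped endocardial ECs and stood above mural cells without overlap. Mural cells (110.3 ± 10.7), vein ECs (93.4 ± 26.8) and capillary ECs (92.4 ± 18.6) were close, and artery ECs (79.8 ± 20.1) were below capillary ECs in 4 of 4 libraries, with overlapping ranges. The endocardial mean was 3.04-fold the capillary mean, and B cells had 54.3 CPM ± 42.8.

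The adaptors were nearly absent from ECs of the large classes. Irs1 had 6 UMIs among 26439 capillary ECs, 7 among 4900 artery ECs, 1 among 948 vein ECs and none in endocardial or lymphatic ECs. It reached 44.0, 67.9, 56.6 and 31.5 CPM in fibroblasts and 9.26, 19.1, 12.2 and 16.2 CPM in mural cells, 2 classes whose ranges did not overlap each other or those of artery ECs. Irs2 was at 2.81 CPM ± 0.677 in capillary ECs, 2.85 ± 2.35 in artery ECs and 0.732 ± 1.03 in vein ECs (3 UMIs). Against these, Irs2 reached 201.7 CPM ± 70.9 in fibroblasts, 41.1 ± 27.2 in endocardial ECs and 40.9 ± 6.86 in mural cells, which was 71.8-fold, 14.6-fold and 14.5-fold the capillary level. B cells (58.5 ± 16.8) and T or NK cells (58.9 ± 34.5) also carried Irs2, so B cells give no background for this gene. Lymphatic ECs had no UMI of Irs2.

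Igfbp3, the main carrier of IGF in plasma, was highest on the mean in artery ECs, at 531.2, 392.7, 301.9 and 271.1 CPM. Capillary ECs had 204.0, 150.3, 151.5 and 131.3 CPM and vein ECs 79.9, 92.8, 34.7 and 92.3 CPM. The artery mean of 374.2 CPM ± 116.7 (SD, n = 4) was 2.35-fold the capillary mean and 4.99-fold the vein mean, in 4 of 4 libraries each. Mural cells (169.2 ± 58.4) overlapped capillary ECs. Fibroblasts (75.5 to 792.7 CPM over libraries of 9 to 71 cells) and lymphatic ECs (133.5 to 597.5 CPM over libraries of 13 to 54 cells) overlapped artery ECs. B cells, many of which carried much endothelial RNA, had 88.7 CPM ± 15.4, which overlapped vein ECs. How much of this B cell level is endothelial RNA was not tested.

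Igfbp4 marked fibroblasts (1240 CPM ± 418.9), endocardial ECs (707.0 ± 181.4) and lymphatic ECs (485.1 ± 263.1). Artery ECs had 135.7, 153.8, 138.8 and 111.4 CPM and capillary ECs 7.89, 9.13, 8.75 and 7.98 CPM, a 16.0-fold difference of the means (14.0-fold to 17.2-fold in single libraries). Vein ECs (21.8 ± 13.4) were above capillary ECs in 4 of 4 libraries. B cells had 7.91 CPM ± 9.41 from 7 UMIs, which overlapped capillary ECs (665 UMIs). These few UMIs do not settle whether the capillary level is background.

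Igfbp5 was highest in lymphatic ECs, followed by vein and endocardial ECs. Lymphatic ECs had 4876, 4885, 4842 and 7338 CPM, vein ECs 823.4, 865.7, 907.0 and 1243 CPM and endocardial ECs 830.6, 534.3, 870.5 and 1528 CPM. Artery ECs had 1.80, 2.18, 3.47 and 1.42 CPM, from 31 UMIs in all. The vein mean of 959.7 CPM ± 191.8 was 433-fold the artery mean and 63.1-fold the capillary mean (15.2 ± 6.56), and the lymphatic mean was 5.72-fold the vein mean. Vein and endocardial ECs overlapped. Mural cells (305.0 ± 45.1) lay below endocardial ECs and above capillary ECs without overlap. B cells had 3 UMIs, all in 1 library (12.4 CPM ± 24.8). Capillary ECs were above B cells in 3 of 4 libraries, with overlapping ranges.

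Igfbp7, a binding protein of the vessel basement membrane with low affinity for IGF-1, was present in each class. Fibroblasts had 2341 CPM ± 304.7, mural cells 1505 ± 150.1, capillary ECs 1387 ± 97.7, artery ECs 1327 ± 84.8 and vein ECs 760.7 ± 148.8. Fibroblasts stood above mural cells and artery above vein ECs without overlap, while mural, capillary and artery values overlapped. B cells held 628.8 CPM ± 85.9 beside endothelial markers near those of mural cells, a level that vein ECs exceeded in 3 of 4 libraries. Endocardial (382.2 ± 146.1) and lymphatic ECs (252.3 ± 150.3) were below B cells on average.

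**Figure D1:**
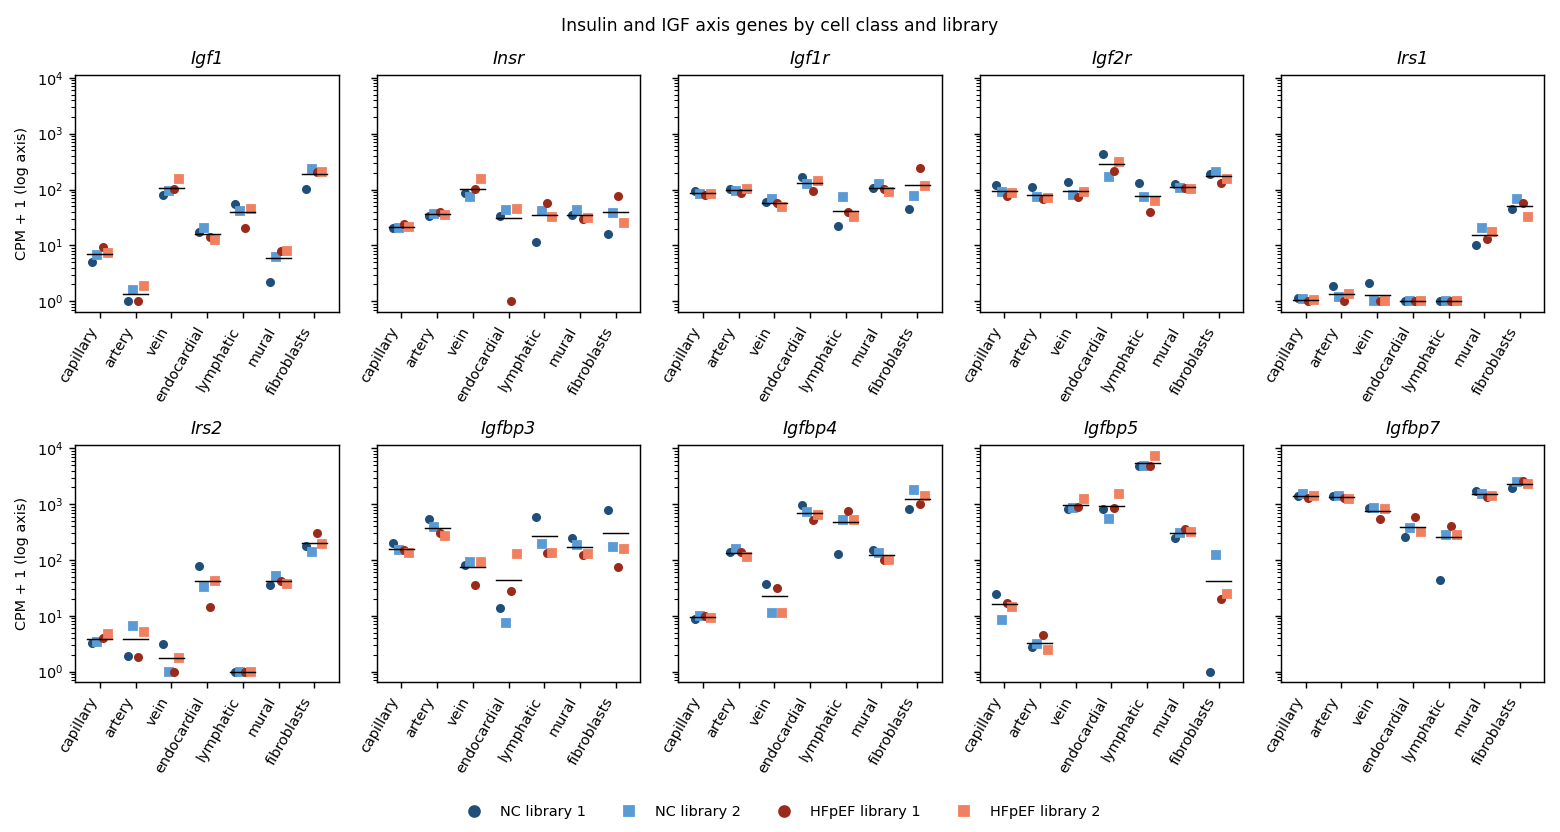
Levels of the 10 genes in 7 cell classes, as CPM + 1 on a log axis. Each point is 1 of the 4 libraries (dark blue circles for NC library 1, light blue squares for NC library 2, dark red circles for HFpEF library 1 and light red squares for HFpEF library 2) and bars are means. Igf1, Insr and Igfbp5 peak in vein ECs among capillary, artery and vein ECs, Igfbp3 and Igfbp4 peak in artery ECs, and Irs1 lies at 0 to 1.1 CPM in these 3 classes.

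The class levels depended on how cells were put in classes. With a gate on marker UMIs in each cell in place of clusters, artery ECs numbered 16878 and vein ECs 3645 cells, several times as many as by clusters. Vein ECs remained the highest of capillary, artery and vein ECs for Insr (42.8 CPM ± 8.69), Igf1 (34.9 CPM ± 12.2) and Igfbp5 (255.1 CPM ± 54.0), at lower levels, and artery ECs for Igfbp3 (239.2 CPM ± 47.5). The order turned for Igfbp4, with 33.2 CPM ± 6.28 in artery ECs against 108.5 CPM ± 29.6 in vein ECs. It also turned for Igf1r, where vein ECs (87.3 CPM ± 7.25) were no longer below capillary ECs (81.3 CPM ± 8.56), and for Igf2r, where artery ECs (89.9 CPM ± 20.1) were above capillary ECs (84.5 CPM ± 13.8). Irs2 was then highest in vein ECs of these classes, at 7.46 CPM ± 1.89.

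Capillary, artery and vein ECs stood in the same order by the share of cells with at least 1 UMI of Igf1, Insr, Igfbp3, Igfbp5 and Igfbp7 when each cell was thinned to 1000 UMIs, which left out 3706 capillary, 488 artery, 92 vein and 213 mural cells that were shallower. Igf1 was found in 9.81% of vein ECs (84 of 856 cells) and 0.48% of capillary ECs, against 0 of 128 B cells, which allows a share of up to 2.34%. Insr was found in 9.35% of vein ECs (80 of 856 cells), 3.49% of artery ECs and 1.99% of capillary ECs, against 0.781% of B cells (1 of 128, 95% Clopper-Pearson interval 0.0198 to 4.28). Igfbp5 was found in 65.2% of lymphatic, 30.4% of vein and 29.2% of endocardial ECs, against 0.272% of artery ECs. Igfbp3 was found in 25.2% of artery ECs and 11.7% of capillary ECs against 5.47% of B cells, and Igfbp7 in 69.1% of capillary ECs against 36.7% of B cells. Irs1 was found in 0 of 856 vein ECs, which allows up to 0.35%, and in 1.77% of mural cells. Without thinning the shares were higher, for example 23.0% for Insr and 21.9% for Igf1 in vein ECs and 44.4% for Igfbp3 in artery ECs. Intervals and limits cover counting error only.

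Within the EC classes the levels varied between clusters. Among the 9 capillary clusters, Igf1 and Igfbp5 shared their peaks: cluster 9, led by Samd5, had 24.7 CPM of Igf1 and 51.0 CPM of Igfbp5, and cluster 5, led by the chemokine gene Cxcl10, had 12.6 and 39.2 CPM. Igfbp3 was lowest in these 2 clusters, at 109.4 CPM in cluster 9 and 97.9 CPM in cluster 5, and highest in cluster 12, led by Cxcr4 (314.7 CPM), and cluster 3, led by Arc (241.1 CPM). Irs2 was highest in cluster 5 (7.51 CPM) and lowest in cluster 9 (0.187 CPM). Of the 2 artery clusters, cluster 13 (led by Clu) had more Igfbp4 than cluster 4 (led by Alox12), 268.6 against 67.2 CPM, and less Igfbp7, 924.8 against 1537 CPM. Of the 2 vein clusters, r2 (led by Igfbp5 itself) had more Insr than r1 (led by Selp), 134.8 against 71.3 CPM, and more Igfbp5, 1250.0 against 660.6 CPM. The clusters were formed without these genes, and their levels are given as a description.

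**Figure D2:**
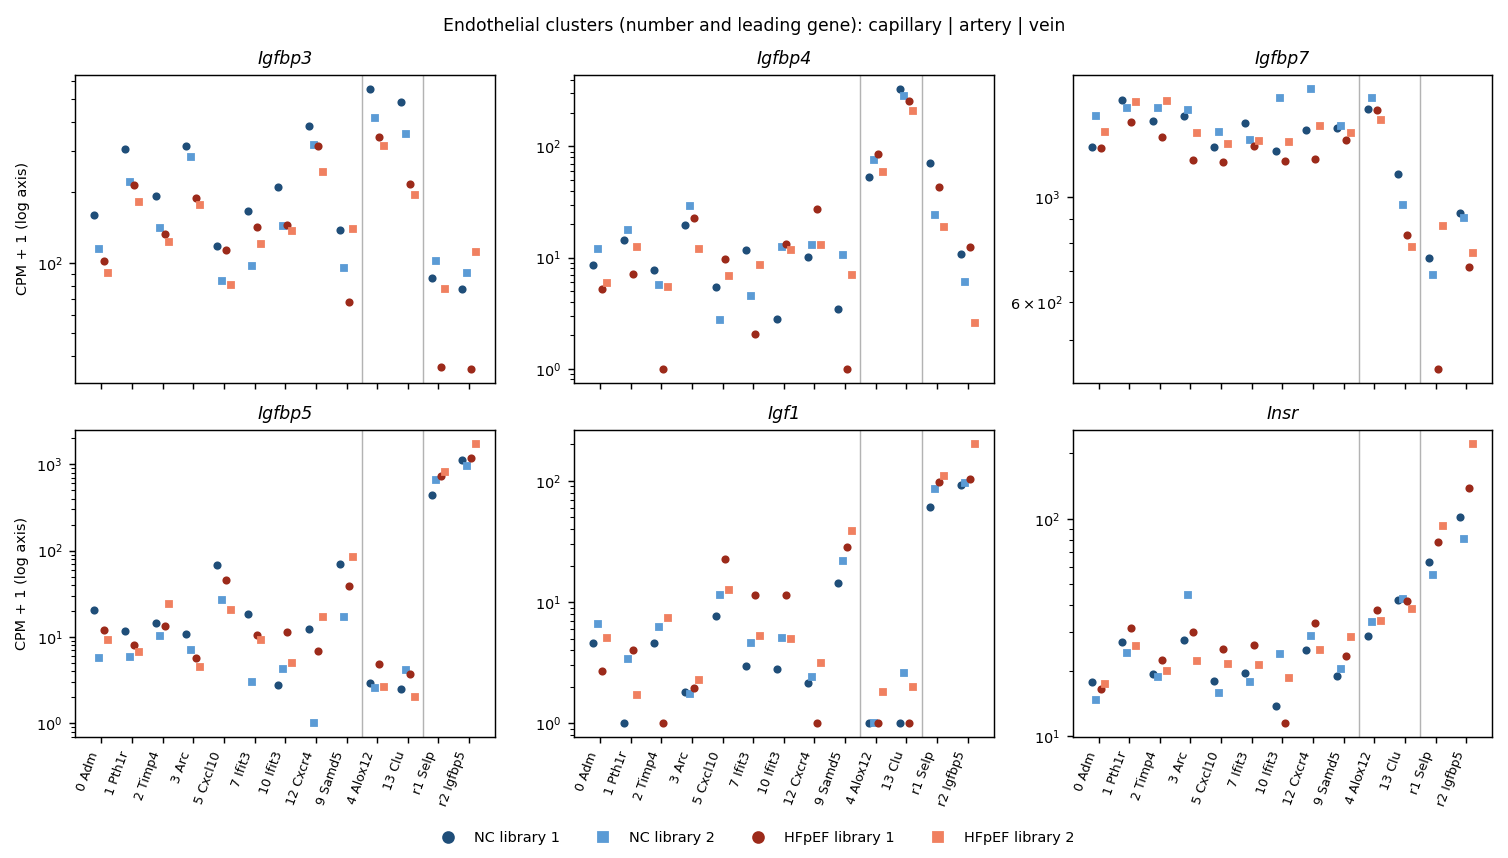
Levels of 6 of the genes in the capillary, artery and vein clusters (number and leading gene), as CPM + 1 on a log axis, with 1 point per library. Igfbp3 is higher and Igfbp5 and Igf1 are lower in the artery clusters than in the vein clusters, and capillary clusters 9 and 5 are the capillary clusters nearest to the vein clusters in Igfbp5 and Igf1.

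Mural cells held pericyte-like and smooth muscle-like clusters. Igf1 was found only in pericyte-like clusters apart from 1 UMI, at 8.08 CPM ± 4.33 against 0.259 ± 0.518 in smooth muscle-like clusters. Irs2 was higher in smooth muscle-like clusters in 4 of 4 libraries, at 65.8 CPM ± 18.4 against 24.9 ± 6.21, and so was Igfbp4, at 159.0 CPM ± 30.5 against 99.0 ± 30.8. Irs1 (19.2 ± 10.3 against 10.6 ± 3.73) overlapped. The 5 mural clusters also differed in endothelial RNA, from a sum of 1261 CPM of the 8 endothelial markers in r7 to 5543 CPM in r0. Igfbp3 was lowest in the 2 clusters with the least of it, at 63.9 CPM in r7 and 85.4 CPM in r3 (endothelial sum 2099), and highest, at 269.3 CPM, in r0. Igfbp5 was highest in r7 (704.9 CPM) and lowest in r0 (112.7 CPM). How much of the Igfbp3 of mural cells is endothelial RNA was not tested.

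**Figure D3:**
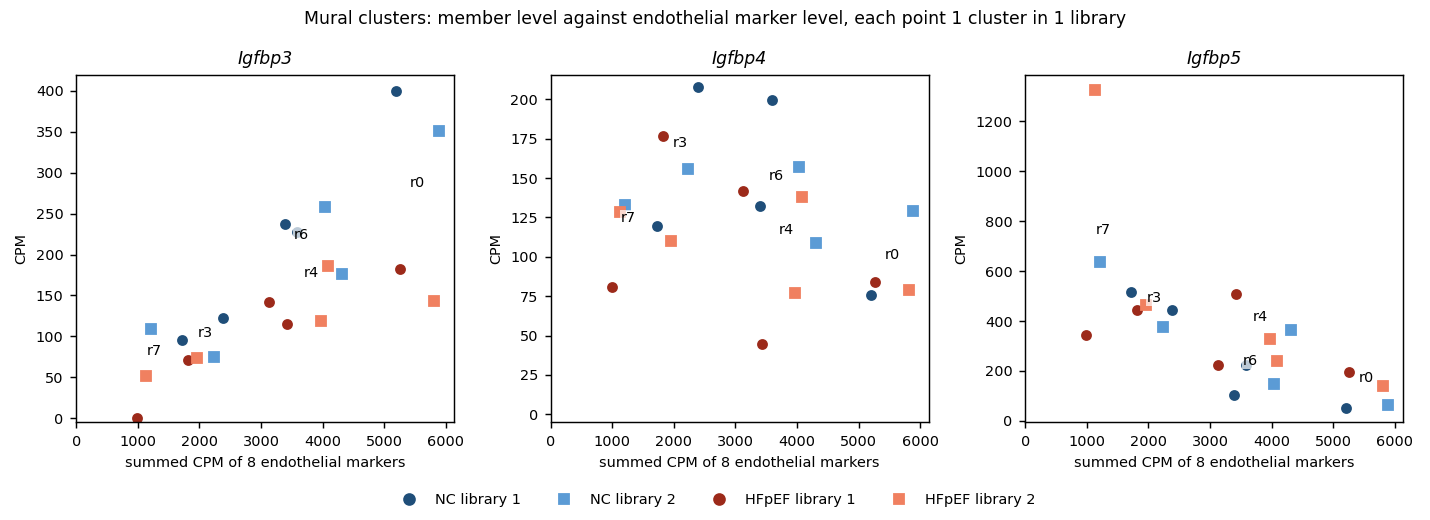
Levels of Igfbp3, Igfbp4 and Igfbp5 (CPM) against the summed level of 8 endothelial markers (CPM) in the 5 mural clusters, each point 1 cluster in 1 library. Igfbp3 is lowest in clusters r7 and r3, which have the least endothelial RNA, and Igfbp5 is highest in r7.

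HFpEF and NC libraries were then compared within capillary, artery and vein ECs and mural cells, each with at least 20 cells in every library, to ask whether the axis differed between the diets. Fibroblasts and lymphatic ECs had too few cells. Endocardial ECs, with 25 to 92 cells a library, were not tested since no comparison had been set for them, and their values are given where they differ. With edgeR's quasi-likelihood test and Benjamini-Hochberg adjustment over all genes tested, 1 of the 10 genes passed in 1 class: Igfbp3 fell in mural cells. In capillary ECs 0 of 9 tested genes were called beside 0.113% of all genes (14 of 12356), in artery ECs 0 of 8 beside 0.317% (34 of 10725), in vein ECs 0 of 8 beside 0.0893% (7 of 7842) and in mural cells 1 of 10 beside 0.802% (81 of 10097). At an unadjusted p under 0.05 there were 1, 1, 2 and 2 of these genes, beside 19.4%, 12.1%, 8.79% and 10.4% of all genes. Irs1 was too low for a test in the 3 EC classes, Igf1 in artery ECs and Irs2 in vein ECs. In simulated counts with dispersions that edgeR estimated from these libraries, 200 genes at a time were given a change of 1 on the log2 scale. It was recovered for 72.5% of them in capillary ECs, 71.0% in artery ECs, 22.0% in vein ECs and 53.0% in mural cells. The simulated fits called 155, 153, 47 and 110 genes in these classes, against 14, 34, 7 and 81 in the data. The adjusted p of a gene depends on how many genes change, so recovery in the data may be lower than these shares.

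Igfbp3 was lower in HFpEF in mural cells, at 121.8 and 126.3 CPM against 246.4 and 182.4 CPM in NC. The libraries did not overlap, and the log2 fold change was -0.74 (SE 0.166, adjusted p = 0.0368 by edgeR), 1.67-fold lower. In pericyte-like cells it was 297.5, 233.5, 131.8 and 129.4 CPM and in smooth muscle-like cells 139.4, 108.6, 103.3 and 122.1 CPM, so the libraries of the diets separated in the former and overlapped in the latter. The largest pericyte-like cluster, r0 (615 cells), was also the mural cluster highest in Igfbp3. It had endothelial markers at 5543 CPM. Of its cells, 27.8% were among those taken as doublets, whose number per library was set beforehand. The part of endothelial RNA in the separation was not tested. Beside it, the 12 artery EC markers summed to 2476 and 2432 CPM in the mural cells of NC and 1975 and 1959 CPM in those of HFpEF. Pericyte markers were also lower in HFpEF (13396 and 14862 against 12324 and 12156 CPM) and cardiomyocyte markers higher (91.4 and 94.1 against 250.3 and 146.1 CPM). In all, 9 of 18 marker lists separated the diets in mural cells, beside 41.2% of all genes tested there. The others were vein EC, fibroblast and Schwann markers (lower) and proliferation, B cell and neutrophil markers (higher). The part of the 9 lists in the result was not tested. The 8 endothelial markers overlapped between diets, with 3640 and 3686 CPM (NC) against 3409 and 4046 CPM (HFpEF). The call was lost without NC library 1 (log2 fold change -0.51) and without HFpEF library 2 (log2 fold change -0.76). DESeq2 gave an adjusted p of 0.251. By edgeR the adjusted p was 0.0602 without doublets, 0.233 after thinning and 0.121 with the marker gate. In the mural clusters with the least endothelial RNA the log2 fold change was -0.55 (adjusted p = 0.72 by edgeR). The make-up of mural cells also shifted, with r6 at 4.62% in NC and 14.4% in HFpEF and r7 at 14.3% and 7.91%.

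In artery ECs, its highest EC class, Igfbp3 stood at 531.2 and 392.7 CPM (NC) against 301.9 and 271.1 CPM (HFpEF). The libraries did not overlap, but the log2 fold change of -0.69 (SE 0.156) did not pass over all genes (unadjusted p = 0.000843, adjusted p = 0.101 by edgeR). Both artery clusters separated the diets, with 550.7, 415.4, 342.1 and 313.4 CPM in cluster 4 and 487.0, 355.3, 215.6 and 194.5 CPM in cluster 13. After thinning, the share of artery ECs with an Igfbp3 UMI was 32.6% and 28.0% in NC and 21.0% and 20.5% in HFpEF. Of 18 marker lists of cell types, 7 also separated the diets in artery ECs: capillary EC (36435 and 39836 against 31386 and 34699 CPM), vein EC and pericyte markers (401.8 and 441.5 against 322.7 and 247.5 CPM) were lower in HFpEF, and erythroid (0.902 and 1.59 against 213.4 and 48.2 CPM), smooth muscle, neutrophil and T or NK cell markers were higher. Beside these 7 of 18 lists, 43.9% of all genes tested in artery ECs separated the diets. The part of the lists in the Igfbp3 result was not tested. Over 14 alternatives the log2 fold change of Igfbp3 in artery ECs ran from -0.894 to -0.359, and it was called in 5 of them. It passed with DESeq2 (adjusted p = 0.0422). It was not called with upper-quartile scaling, without doublets, after thinning, with the marker gate or at resolution 1.5. Without NC library 2 the log2 fold change was -0.894 and without HFpEF library 1 it was -0.784. In capillary ECs the libraries overlapped (204.0 and 150.3 against 151.5 and 131.3 CPM), with a log2 fold change of -0.33 (SE 0.162, adjusted p = 0.311 by edgeR), and in vein ECs it was -0.18 (SE 0.276, adjusted p = 0.878 by edgeR). The fold change of Igfbp3 was thus below 0 in the 4 classes tested, of which only the mural one was called. Untested endocardial ECs went the other way, with 13.03 and 6.399 CPM (NC) against 26.8 and 128.0 CPM (HFpEF), from 4, 2, 2 and 44 UMIs. So did T or NK cells (19.7 and 49.1 against 178.5 and 62.6 CPM). Lymphatic ECs (597.5 and 189.4 against 133.5 and 134.9 CPM) and fibroblasts (792.7 and 173.5 against 75.5 and 157.5 CPM), also untested and few, were lower in HFpEF without overlap.

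In vein ECs, their highest EC class, Insr and Igf1 were higher in both HFpEF libraries than in both NC libraries without passing over all genes. Insr stood at 84.3 and 72.0 CPM (NC) against 99.8 and 152 CPM (HFpEF), and the fit gave a log2 fold change of 0.78 (SE 0.222, unadjusted p = 0.00311, adjusted p = 0.294 by edgeR). Igf1 stood at 77.7 and 91.7 CPM (NC) against 99.8 and 152.8 CPM (HFpEF), with a fitted log2 fold change of 0.68 (SE 0.223, unadjusted p = 0.00867, adjusted p = 0.393 by edgeR). HFpEF library 1 gave only 23 UMIs of each, and without HFpEF library 2 the fold changes were 0.38 and 0.27. With cells thinned to 1000 UMIs the fold change of Igf1 was -0.003, while with the marker gate it was 0.86 and passed (adjusted p = 0.0403 by edgeR). Of the 18 marker lists, 6 separated the diets in vein ECs: capillary EC (29833 and 36653 against 24458 and 27879 CPM), endothelial and pericyte markers were lower in HFpEF and lymphatic EC, cardiomyocyte and mesothelial markers higher, while vein EC markers overlapped (5431 and 4144 against 4439 and 5391 CPM). Beside these 6 of 18 lists, 39.6% of all genes tested in vein ECs separated the diets. Insr and Igf1 are both lower in capillary than in vein ECs. The part of the lower capillary EC markers in their difference was not tested. The make-up of vein ECs shifted between diets, with cluster r2, which is higher in both genes, at 57.1% of vein ECs in NC and 33.6% in HFpEF. Within r1, Insr had 62.5, 54.2, 76.9 and 91.6 CPM, and within r2 101.4, 79.6, 137.4 and 220.7 CPM, so the HFpEF libraries lay above the NC libraries in both.

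Igfbp4 in mural cells stood at 151.3 and 134.9 CPM (NC) against 98.8 and 98.7 CPM (HFpEF), without overlap and with a log2 fold change of -0.50 (SE 0.161, unadjusted p = 0.0056, adjusted p = 0.207 by edgeR). In capillary, artery and vein ECs Igfbp4 overlapped between diets, while in endocardial ECs, which were not tested, it stood at 947.8 and 729.5 CPM (NC) against 522.3 and 628.6 CPM (HFpEF) without overlap. Irs2 in capillary ECs stood at 2.21 and 2.34 CPM (NC) against 3.01 and 3.68 CPM (HFpEF), with a log2 fold change of 0.59 (SE 0.247, unadjusted p = 0.0463, adjusted p = 0.25 by edgeR). The make-up of capillary ECs also shifted: cluster 5, highest in Irs2, was 4.99% of capillary ECs in NC and 16.7% in HFpEF, and cluster 2, led by Timp4 and low in Irs2 (0.617 CPM), was 29.7% and 5.59%. Giving each capillary cluster equal weight in each library left a log2 difference of 0.03 for Irs2, and of 0.66 for Igf1 and -0.36 for Igfbp3, values with no test.

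None of the remaining differences passed the test. The libraries of the diets did not overlap for 6 of 9 tested genes in capillary ECs (beside 51.2% of all genes), 3 of 8 in artery ECs (43.9%), 5 of 8 in vein ECs (39.6%) and 7 of 10 in mural cells (41.2%). Igfbp7 was lower in HFpEF without overlap in the 4 classes tested, for example at 1410 and 1375 CPM against 1306 and 1218 CPM in artery ECs, with log2 fold changes from -0.29 in vein ECs to -0.13 in capillary ECs. Among classes not tested, its mean was higher in HFpEF in endocardial ECs (451.8 against 312.6 CPM), lymphatic ECs (341.2 against 163.4 CPM) and fibroblasts (2490.0 against 2191 CPM). The libraries overlapped in each of these. T or NK cells and neutrophils also had higher means of Igfbp7, while macrophages had a lower one. B cells were lower without overlap, at 715.0 and 645.5 CPM (NC) against 644.9 and 509.7 CPM (HFpEF). Igf1r and Igf2r also had fold changes below 0 in the 4 classes tested, with Igf2r at 119.1 and 88.2 CPM against 76.4 and 85.8 CPM in capillary ECs (log2 fold change -0.35, SE 0.153, adjusted p = 0.262 by edgeR). With Igfbp3 and Igfbp4, 5 of the 10 genes were below 0 in these 4 classes, and the share of all genes with 1 sign in the 4 classes was not computed. The signs were kept with DESeq2 and with upper-quartile scaling. Thinning turned Igf2r in mural cells (0.10) and Igfbp4 in capillary ECs (0.066), and counting unnamed cells turned Igfbp4 in capillary ECs (0.02). Leaving out 1 library turned the sign for Igf1r in artery ECs, Igf2r in vein ECs and mural cells, Igfbp3 in vein ECs and Igfbp4 in capillary and vein ECs. The classes come from the same 4 libraries and are not independent. In fibroblasts, which were not tested, Igf1r was higher in HFpEF without overlap (44.0 and 75.5 against 245.2 and 114.2 CPM, from 3, 10, 13 and 29 UMIs). Its means were lower in HFpEF in untested endocardial and lymphatic ECs. The mean of Igfbp4 was higher in HFpEF in untested lymphatic ECs (641.8 against 328.4 CPM), where the libraries overlapped, and lower in fibroblasts. Igfbp5 in capillary ECs stood at 23.4 and 7.60 CPM (NC) against 16.2 and 13.6 CPM (HFpEF), so both HFpEF values lay within the spread of NC. Igf1 in mural cells rested on 35 UMIs.

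**Figure D4:**
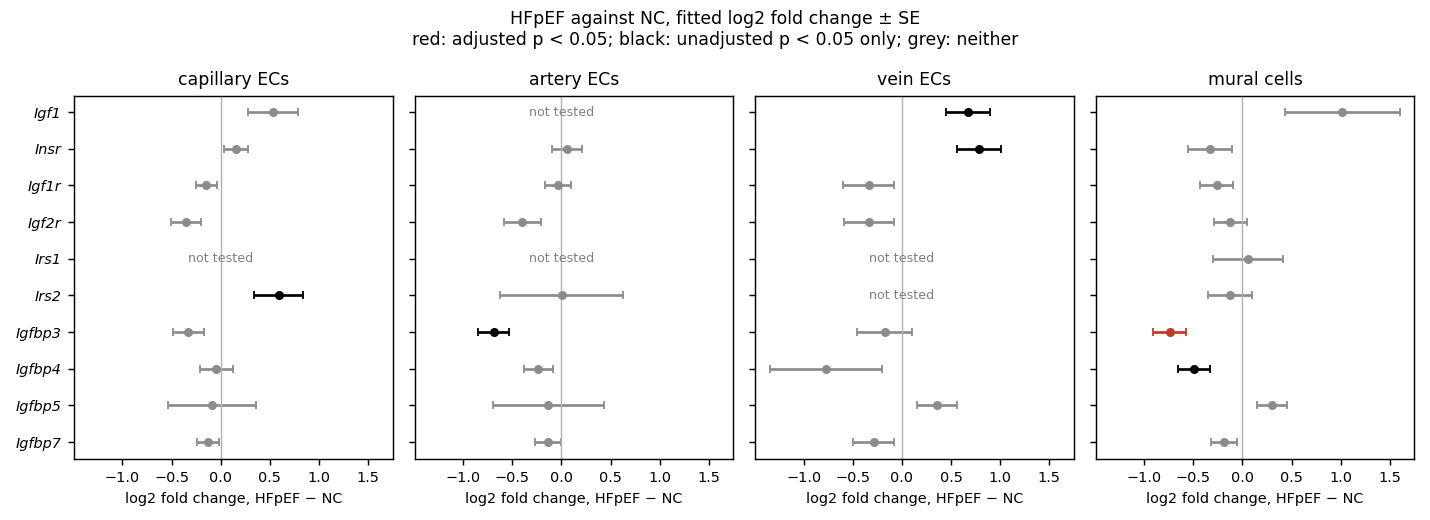
Fitted log2 fold change (HFpEF over NC) ± SE of the 10 genes in the 4 classes tested. Only Igfbp3 in mural cells (-0.74) passes an adjusted p of 0.05. Igfbp3, Igf1r, Igf2r, Igfbp4 and Igfbp7 lie below 0 in each of the 4 panels, though some of these signs turn when 1 library is left out or cells are thinned.

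The difference of the HFpEF effect between each class and capillary ECs was tested with library as a block. None of the 10 genes was called by edgeR in artery ECs (0.150% of 11302 genes were), in vein ECs (0.0973%) or in mural cells (0.699%). At an unadjusted p under 0.05 there were 1, 1 and 3 of the 10 genes, beside 5.33%, 6.17% and 7.47% of all genes. For Insr in vein ECs the effect exceeded the capillary effect by 0.69 on the log2 scale (SE 0.213, unadjusted p = 0.0025, adjusted p = 0.372 by edgeR), and without HFpEF library 1 the adjusted p was 0.0369 (difference 0.86). For Igfbp3 the difference from the capillary effect was -0.37 in artery ECs (SE 0.123, adjusted p = 0.426 by edgeR) and -0.41 in mural cells (SE 0.152, adjusted p = 0.397 by edgeR). For Igfbp5 the difference rested on the NC libraries, which were far apart in capillary ECs: in mural cells it was -0.79 without NC library 1 (adjusted p = 0.0064 by edgeR) and 1.16 without NC library 2 (adjusted p = 3.38e-08 by edgeR), and in vein ECs it was 1.15 without NC library 2 (adjusted p = 3.82e-09 by edgeR). With all 4 libraries the effects were not shown to differ between classes for any of the 10 genes.

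Downstream of the receptors, few genes of the pathway lists (96 genes, the 10 included) passed the adjusted test. Of the listed genes, 79 were tested in capillary ECs and 0 were called, 75 in artery ECs with 1 called, 63 in vein ECs with 0 called and 76 in mural cells with 2 called, Igfbp3 among them. At an unadjusted p under 0.05 the numbers were 16, 18, 9 and 12, beside 19.4%, 12.1%, 8.79% and 10.4% of all genes. The called genes beside Igfbp3, 1 in artery ECs and 1 in mural cells, were on the FOXO list. Sesn1, a stress-induced inhibitor of mTORC1, fell in artery ECs from 32.5 and 28.6 CPM to 13.9 and 13.5 CPM (log2 fold change -1.17, SE 0.189, adjusted p = 0.0279 by edgeR). Without NC library 1 or HFpEF library 2 the adjusted p was 0.0531 or 0.302, and 0.116 by DESeq2. Trib1, a pseudokinase, rose in mural cells from 30.9 and 26.7 CPM to 40.6 and 68.9 CPM (log2 fold change 1.07, SE 0.232, adjusted p = 0.0298 by edgeR). Without HFpEF library 2 the log2 fold change was 0.56 (adjusted p = 0.634 by edgeR), without NC library 1 the adjusted p was 0.0594, DESeq2 gave 0.595, and in the mural clusters with the least endothelial RNA the log2 fold change was 0.12.

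Both had the same sign in capillary ECs, where Sesn1 was 31.9 and 31.7 against 20.6 and 15.1 CPM (adjusted p = 0.0817 by edgeR) and Trib1 30.8 and 31.6 against 48.3 and 66.4 CPM (adjusted p = 0.0735 by edgeR). Pdk4 encodes a kinase that inhibits pyruvate dehydrogenase, and it is repressed by insulin in many tissues. It was 11.2 and 12.4 against 20.4 and 22.9 CPM in capillary ECs (log2 fold change 0.88, SE 0.127, adjusted p = 0.0728 by edgeR). In artery ECs Pdk4 had a log2 fold change of 1.11 (SE 0.284, adjusted p = 0.161 by edgeR) and in vein ECs 0.89 (SE 0.351, adjusted p = 0.489 by edgeR). Eif4ebp1, the translation repressor that mTORC1 inactivates, was 52.8 and 47.7 against 32.3 and 28.7 CPM in capillary ECs (log2 fold change -0.73, SE 0.118, adjusted p = 0.0735 by edgeR). Slc2a4, the insulin-responsive glucose transporter GLUT4, was 36.4 and 40.3 against 14.9 and 21.9 CPM in mural cells (log2 fold change -0.93, SE 0.246, adjusted p = 0.0911 by edgeR) and was too low for a test in ECs. Txnip, which slows glucose uptake, was 1173 and 1213 against 972.2 and 712.7 CPM in capillary ECs (log2 fold change -0.50, SE 0.165, adjusted p = 0.173 by edgeR). Of the other genes that separated the diets in artery ECs, Bnip3, a mitophagy receptor, stood at 136.9 and 126.1 against 69.4 and 96.0 CPM (log2 fold change -0.62), and Gadd45a, a growth arrest gene, at 27.3 and 27.2 against 36.4 and 36.1 CPM (0.41). In mural cells the cell cycle inhibitor Cdkn1b stood at 61.8 and 79.7 against 92.0 and 111.0 CPM (0.57), and the mitophagy kinase Pink1 at 172.9 and 170.5 against 136.7 and 113.2 CPM (-0.45). The rest were Trib3 (-0.79) and Pik3r3 (0.52) in capillary ECs, Slc2a1 (-0.68) in artery ECs, Shc1 (0.85) and Igfbp6 (-0.76) in vein ECs and Ptprf (-0.89) in mural cells, each a log2 fold change that did not pass. Slc2a1 was at 0.23 with the marker gate. None of these genes passed by edgeR in the class named, though the libraries of the diets did not overlap. By DESeq2 the capillary values of Sesn1 (adjusted p = 0.0049), Trib1 (adjusted p = 0.000172), Pdk4 (adjusted p = 0.00478) and Eif4ebp1 (adjusted p = 0.00319) did pass, and by edgeR they passed without HFpEF library 1.

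By list, none of the 18 receptors and adaptors tested in capillary ECs was called, with a median log2 fold change of -0.04 beside -0.004 over all genes tested. Of 28 genes of PI3K, AKT and mTORC1, 0 were called in capillary and artery ECs, with medians of -0.02 and 0.07. The 18 FOXO genes had a median of 0.00 in capillary ECs and 0.10 in artery ECs, where 5 had an unadjusted p under 0.05 in each direction, beside 12.1% of all genes in either direction. The 7 tested binding proteins and their proteases had a median of -0.09 in capillary ECs, -0.13 in artery ECs, -0.29 in vein ECs and -0.19 in mural cells. Of 6 genes of glucose entry tested in capillary ECs, 0 were called and the median was -0.18.

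**Figure D5:**
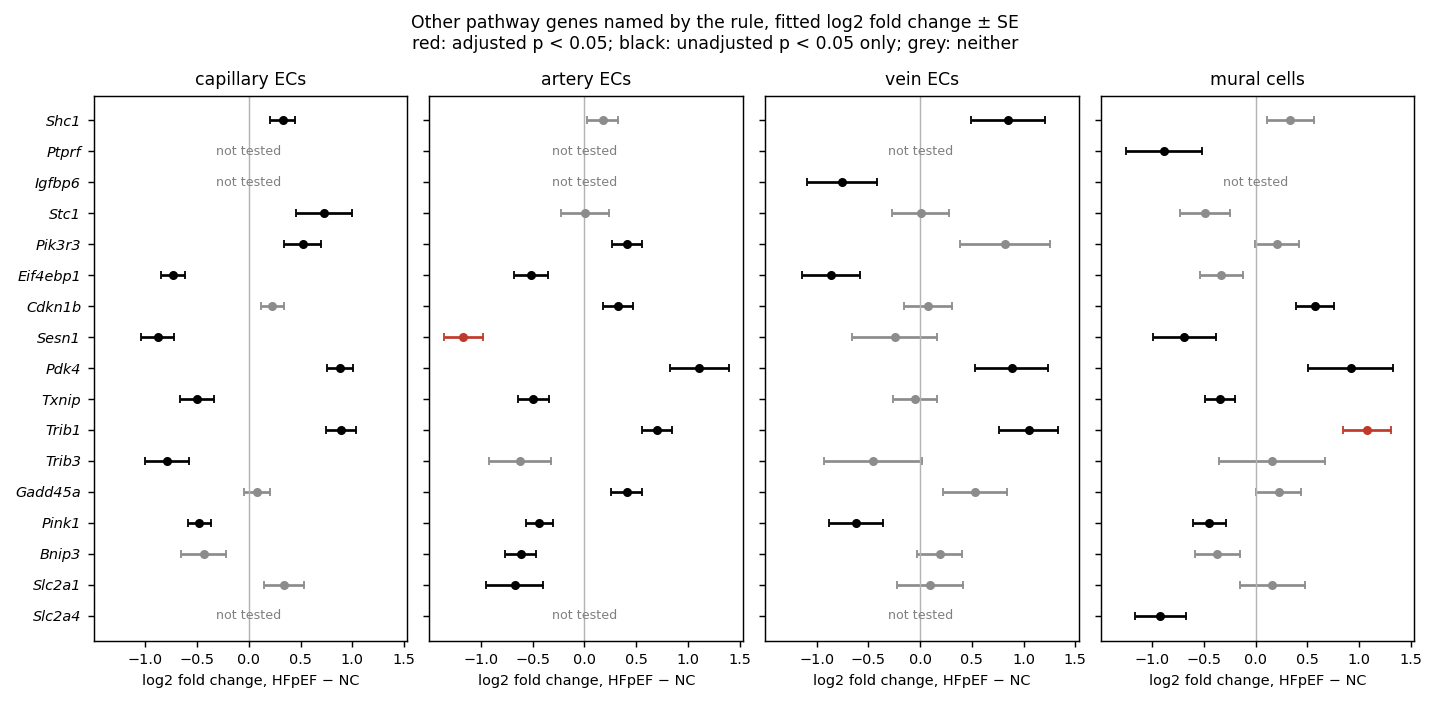
Fitted log2 fold change (HFpEF over NC) ± SE of the other pathway genes that were named by their size, separation and level. Sesn1 in artery ECs (-1.17) and Trib1 in mural cells (1.07) pass an adjusted p of 0.05, while Pdk4 lies above 0 and Eif4ebp1 below 0 in all 4 panels without passing.

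The genes whose levels ran most like those of the axis were looked for over the 20 sums of 5 classes in 4 libraries (capillary, artery, vein and endocardial ECs and mural cells), which share libraries. Igfbp5 was nearest to Nr2f2, the transcription factor of vein identity (Pearson r of log2(CPM + 1) 0.965), followed by Csrp2 (0.951) and Actn1. Igfbp4 was nearest to the kinase gene Bmx (0.965), followed by Fhl1 and Tmod2. Nr2f2 and Bmx are on the vein EC and artery EC marker lists used to name the classes, so these values are no separate sign of vessel identity. Of the 5 classes, Igfbp4 was highest in endocardial ECs (707.0 CPM), with 134.9 CPM in artery ECs. Igf1 was nearest to Odc1 (0.939), Insr to Prpf40b (0.926), Irs1 to Map3k7cl (0.981), Irs2 to Sox5 (0.939) and Igf1r to Zbtb4 (0.922). Igf2r was nearest to Txndc5 (0.902), Igfbp3 to Dicer1 (0.934) and Igfbp7 to Pcdh1 (0.949). These are descriptions over 20 points that fall into 5 classes.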

How the data were processed

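RFP+ left ventricular cells were profiled with 10x Genomics 3′ v3 chemistry in 4 libraries (2 NC, 2 HFpEF), grouped by the submitters' labels. The deposited values are UMI counts per gene and cell, which the authors made with Cell Ranger 5.0.1 after fastp, on mm10, per the submitters' processing notes. Depth after filtering was 29867750, 31201157, 10801149 and 47117650 UMIs (NC 1, NC 2, HFpEF 1, HFpEF 2), and HFpEF cells were shallower.

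Cells with more than 200 genes and under 20% mitochondrial UMIs were kept. Clustering with scikit-learn 1.9.0 and igraph 0.11.9 (2000 variable genes, 10 components, 20 neighbours, multilevel communities, resolution 0.8) left out the 10 genes and all listed pathway genes. Genes of red cells, cardiomyocytes and proliferation were left out too, and UMI count and mitochondrial share were regressed out. Clusters were named by marker genes. A cluster was named capillary ECs when no other class score passed, and no capillary score was required. Clusters with more markers of another class than of their own among their 10 leading genes stayed unnamed. Capillary clusters 3, 5, 7 and 10 had 0 capillary or endothelial markers among these genes. Doublets were scored with scrublet in scanpy 1.11.5 and kept in, with their removal as an alternative. The cells with the highest scores in each library were taken as doublets, at a preset share of 0.8% per 1000 cells. This gave 406, 359, 238 and 3488 cells, where scrublet's own threshold called 0, 0, 0 and 2418. UMI counts were summed per library and class and tested with edgeR 4.0.16 (R 4.3.3; quasi-likelihood, TMM scaling, filterByExpr, diet as the only term, adjusted p under 0.05), which was tested on simulated data. The difference of the effect between classes was fitted with library as a block. Cells were never used as replicates. Shares of cells were computed after thinning to 1000 UMIs, with 95% Clopper-Pearson intervals.

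The 10 genes, the pathway lists and the tests were chosen with earlier results of these data known. Of the listed genes, the text names those called in a class and, per class and direction, up to 4 with the largest change among those with at least 10 CPM, an unadjusted p under 0.05 and no overlap between diets. Stc1 and Klf15 are named for their class differences. The floxed exon of Scarb1 lies outside what a 3′ assay reads, so recombination was not checked here. From this assay the paper reports less Scarb1 in capillary ECs of double-floxed than of single-floxed mice. Genotype was not assigned to the libraries here. Alternatives were DESeq2 1.42.0, upper-quartile scaling, no filter on low counts, a block of the replicate number, leaving out each library, hemoglobin-rich cells or doublets, thinning, a per-cell marker gate and resolution 1.5. Chosen after seeing the data were leaving out shared barcodes, counting unnamed cells as capillary ECs, weighting capillary clusters equally and using the mural clusters lowest in endothelial markers. The red cell and cardiomyocyte genes left out of clustering, and the gates that set aside cycling and red cells, were set after a first clustering.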

Additional observations from a re-analysis of the deposited data

Results flagged for a closer look

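The HFpEF effect on 2 listed genes differed between classes by edgeR's quasi-likelihood test of the difference itself, with Benjamini-Hochberg adjustment over all genes. Stc1, which encodes the secreted glycoprotein stanniocalcin-1, stood at 43.4 and 23.1 CPM (NC) against 62.2 and 48.9 CPM (HFpEF) in capillary ECs, a log2 fold change of 0.73 that did not pass (adjusted p = 0.209 by edgeR). The log2 fold change was 0.01 in artery ECs, 0.004 in vein ECs and -0.49 in mural cells, none of them called. The effect was lower than in capillary ECs by a log2 difference of -0.755 in artery ECs (adjusted p = 0.000341 by edgeR), -0.839 in vein ECs (adjusted p = 0.00074 by edgeR) and -1.251 in mural cells (adjusted p = 1.13e-06 by edgeR). Without HFpEF library 2 the artery and vein differences were -0.65 and -0.53 (adjusted p = 0.316 and 0.8 by edgeR). With cells thinned to 1000 UMIs the 3 differences were -0.43, -0.57 and -1.09 (adjusted p = 0.504, 0.477 and 0.0675 by edgeR).

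Klf15, a transcription factor that is lowered by insulin in liver, stood at 13.5 and 7.46 CPM (NC) against 1.86 and 1.24 CPM (HFpEF) in capillary ECs, a log2 fold change of -2.91 (adjusted p = 0.0566 by edgeR). In mural cells it stood at 26.6 and 13.2 CPM (NC) against 10.8 and 12.3 CPM (HFpEF), a log2 fold change of -0.65, so the effect exceeded the capillary one by 2.189 on the log2 scale (adjusted p = 0.00318 by edgeR). That difference was 1.63 without HFpEF library 2 (adjusted p = 0.782 by edgeR), 1.80 after thinning (adjusted p = 0.638 by edgeR) and 1.47 with a per-cell marker gate (adjusted p = 0.216 by edgeR).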

How the results depend on the processing

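The counts of called genes depended on the setting, and the cause was not tested. In capillary ECs 14 genes were called, against 287 with DESeq2, 8 with upper-quartile scaling, 1208 without the filter on low counts, 6 without doublets, 220 after thinning, 120 with the per-cell marker gate, 78 at resolution 1.5, 7 without shared barcodes and 1 with unnamed cells counted as capillary ECs. In artery ECs 34 were called, against 301 without the filter, 58 without doublets and 6 with the gate. In vein ECs 7 were called, against 69 without the filter and 103 with the gate. In mural cells 81 were called, against 18 with DESeq2, 201 without the filter, 36 without doublets, 2 after thinning, 44 with the gate and 3 in the clusters lowest in endothelial markers. The differences between classes numbered 107, against 35 with DESeq2, 229 without the filter, 35 after thinning and 161 at resolution 1.5. Of the 10 genes, Igfbp3 was the 1 called in artery ECs with DESeq2 and without the filter, Igf1 the 1 called in vein ECs with the gate, and 0 were called in mural cells with DESeq2, without doublets, after thinning, with the gate and in the clusters lowest in endothelial markers.

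Leaving out 1 library gave 4 (without NC library 1) to 884 calls (without HFpEF library 1) in capillary ECs, 28 (without HFpEF library 2) to 141 (without NC library 2) in artery ECs, 6 (without HFpEF library 2) to 75 (without NC library 1) in vein ECs, 31 (without NC library 1) to 156 (without HFpEF library 1) in mural cells and 24 (without HFpEF library 2) to 171 (without NC library 2) between classes. Of the 10 genes, 0 to 1 were then called in artery ECs (Igfbp3, without NC library 2 or HFpEF library 1), 0 to 1 in mural cells (Igfbp3, lost without NC library 1 or HFpEF library 2) and 0 to 2 between classes (Igfbp5 and Insr). Log2 fold changes changed sign in capillary ECs for Igfbp4 (-0.143 to 0.063) and Igfbp5 (-0.69 to 0.95), in artery ECs for Insr (-0.011 to 0.205), Irs2 (-1.86 to 1.84), Igf1r (-0.139 to 0.037) and Igfbp5 (-0.51 to 0.82), in vein ECs for Igf2r (-0.652 to 0.061), Igfbp3 (-1.281 to 0.061) and Igfbp4 (-1.39 to 0.40), and in mural cells for Irs1 (-0.31 to 0.71), Irs2 (-0.34 to 0.18) and Igf2r (-0.25 to 0.005).

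Other changes of sign were seen in capillary ECs for Igfbp4 after thinning (0.066) and with unnamed cells (0.02), and for Igfbp5 with the gate (0.11) and at resolution 1.5 (0.34). In artery ECs they were seen for Irs2 with DESeq2 (-0.21), upper-quartile scaling (-0.025) and no filter (-0.005), for Igfbp5 with DESeq2 (0.13) and the gate (0.36), and for Slc2a1 with the gate (0.23). They were also seen for Igf1 in vein ECs after thinning (-0.003), and in mural cells for Insr (0.019) and Igf2r (0.10) after thinning and Irs2 with the gate (0.05).

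With the replicate block, 159 genes were called in capillary ECs, 219 in artery ECs (1 of the 10 genes), 4 in vein ECs and 186 in mural cells, and the sign changed for Igfbp5 in capillary ECs (0.17), Irs2 in artery ECs (-0.42) and Irs1 in mural cells (-0.026). The labels share only a number: deviations of same-numbered libraries correlated at 0.04 in capillary ECs, 0.046 in artery ECs, -0.034 in vein ECs and 0.012 in mural cells. Of the fold changes recomputed, 976 were counted as unchanged, 37 changed sign, 59 gained a call and 19 lost one. In the tested fits, unchanged means the same sign and the same call, whatever the size. Igfbp3 in capillary ECs, for example, counted as unchanged while it ran from -0.536 to -0.09. Values with equal weight of capillary clusters have no test. They were counted as unchanged when within the SE of the main fit, and 1 was not. With 200 genes changed at once in simulated counts, 22.0% of log2 changes of 1 were recovered in vein ECs (948 cells) and 53.0% to 72.5% in the other classes. The comparison in fibroblasts and its alternatives were not run, since libraries held as few as 9 cells.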
